A study of Mus musculus with 17 samples.

Results

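The regions described are those marked by H3K9ac, acetylation of lysine 9 on histone H3, in wild-type (WT) mouse embryonic stem cells after retinoic acid (RA) and in untreated WT cells. They were formed by merging peaks of the 2 WT H3K9ac lists that overlapped by at least 1 bp, which gave 3571 regions from 5415 peaks. All 8 acetylation lists of the series, merged in the same way, held 21442 peaks in 6400 regions, and 2 of the 17 samples were WT H3K9ac libraries. A region found in the RA list only is called gained, one in the untreated list only is called lost, and one in both lists is called kept. These words describe the lists and not a count of molecules.

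H3K9ac is placed by histone acetyltransferases and is known as a mark of active promoters and enhancers. RA enters the nucleus and binds RAR-RXR receptor pairs, which switch from repressing to activating their target genes, and it drives embryonic stem cells out of self-renewal toward differentiated fates. Sirt6 is an NAD-dependent deacetylase that removes H3K9ac and H3K56ac, the mark on lysine 56 of the same histone.

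Cells came from 129-strain mice, either WT or lacking Sirt6 (KO), and were kept on irradiated fibroblast feeders with LIF, the cytokine that holds stem cells undifferentiated; feeders were taken off by a plating step. In the RA group, LIF was withdrawn a day before RA, RA was given for 2 days from a 0.01 M stock in DMSO diluted 10000-fold, and cells were harvested a day after return to medium without LIF or RA. The untreated group received neither step, so RA, LIF withdrawal, the added days of culture and the DMSO cannot be told apart in any comparison below. The same antibody to H3K9ac was used in the WT and KO cells, H3K56ac was profiled in the same 4 conditions, and Sirt6 binding was profiled in untreated cells. Each group held 1 library, so no difference has a replicate check and no p-value is given. Whether the peaks lie at gene starts, where this mark is best known, was not analysed here, and the regions are therefore named by their mm9 position.

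The RA library held 8525176 tags after filtering and the untreated library 7719553. The estimated fragment length, d, was 198 bp in the RA library and 155 bp in the untreated library; the other 6 acetylation libraries had 175 to 227 bp and 5782181 to 10250030 tags. The untreated WT H3K9ac library therefore stands apart with the shortest fragments of the 8, and the untreated WT H3K56ac library is next to it. The peak caller extends each tag to d, and the shortest peak of each list was as long as its d. Pileup, the number of extended tags over a summit, is larger for a longer d. The highest pileup was 396 in the RA list and 310 in the untreated list, in each case equal to 2 times d, the most that 1 tag per position on each strand allows, and the same held in all 8 lists. Most peaks were far from that limit: 20 of 2626 peaks in the RA list and 15 of 2789 in the untreated list reached 50% of it.

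H3K9ac was found at 2618 regions after RA and at 2769 regions in untreated cells, and 1816 were kept. Gained regions numbered 802, which is 22.5% of all 3571; kept regions were 50.9% and lost regions, at 953, 26.7%. The kept regions made up 69.4% of the RA regions (95% Wilson interval 67.6 to 71.1) and 65.6% of the untreated regions (63.8 to 67.3). Intervals here cover counting error only, and regions of 1 library are not replicates of a condition. There were 0.842 gained regions per lost region (0.765 to 0.925). The ratio was 1.06 (0.96 to 1.18) at a −log10 q of at least 10. It was 1.01 (0.92 to 1.11) when both lists were cut to the same number of peaks. Its direction is therefore not given by these lists.

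The peak calls that were not shared were mostly the weak ones. Fold enrichment, the pileup over the local background as the authors' peak caller computed it, had a median of 9.45 in gained regions and 9.40 in lost regions, against 13.4 after RA and 14.3 untreated in kept regions. The median −log10 q was 13.1 in gained regions and 12.7 in lost regions, and 26.2 after RA and 26.3 untreated in kept ones. In the RA list, the share of regions kept was 44.9% in the weakest of 4 equal bins by −log10 q, then 61.6%, 76.9% and 94.0% in the strongest. In the untreated list the shares by bin were 32.5%, 53.0%, 78.5% and 98.4%. In the strongest bins, 39 RA regions and 11 untreated regions had no call in the other WT H3K9ac list.

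**Figure D1:**
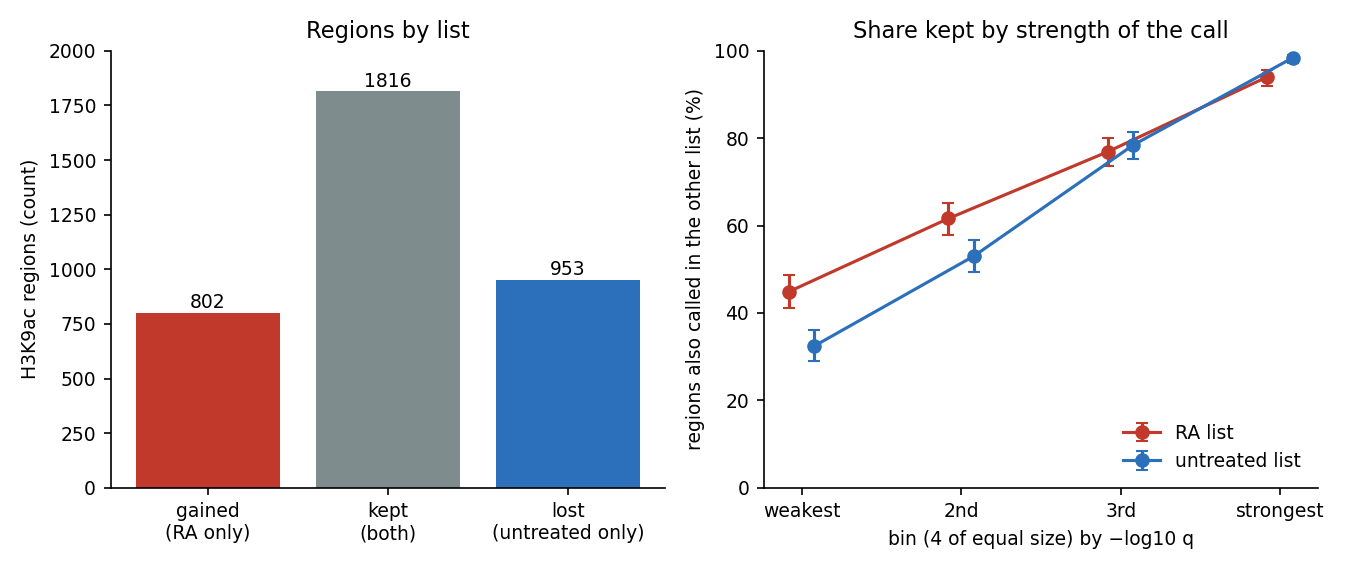
Left, the number of WT H3K9ac regions called in the RA list only (gained), in both lists (kept) and in the untreated list only (lost). Right, the share of each list's regions (%) also called in the other list, by bin of −log10 q (4 of equal size), with 95% Wilson intervals for counting error; the share is lowest in the weakest bin of both lists (44.9% RA, 32.5% untreated) and over 90% in the strongest.

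Few regions called in one list lay beside a region of the other. Of the 802 gained regions, 24 (2.99%) lay within 1000 bp of a region of the untreated list, and 16 of the 953 lost regions (1.68%) lay within that distance of a region of the RA list. In the 1794 kept regions that held 1 peak from each list, the summits were a median of 17.5 bp apart, and 88.9% were within 50 bp. The weakest peak called had a −log10 q of 3.81 and a pileup of 9 in the RA list, and 3.74 and 8 in the untreated list. The limit followed the local background, and the 3 weakest peaks of each list had pileups of up to 18 in the RA list and 14 in the untreated list. A region absent from a list is not one shown to lack the mark.

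By fold enrichment, the first of the gained regions was chr18:31453507-31453826, with a pileup of 100 and a fold enrichment of 29.3 after RA and no call in untreated WT cells. H3K56ac at that region had pileups of 132 in WT cells after RA and 40 in untreated WT cells. The KO libraries had H3K9ac pileups there of 148 after RA and 99 untreated, so KO cells carried the mark in both states.

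The same picture held at the next gained region, chr6:15554199-15554533, where fold enrichment was 28.6 and pileup 115 in WT cells after RA. Its H3K9ac pileup was 158 in KO cells after RA and 145 in untreated KO cells, and its H3K56ac pileup was 163 in WT cells after RA and 29 in untreated WT cells. The region chr16:82705244-82705539 went another way, with a fold enrichment of 25.1 and a pileup of 63 in WT cells after RA but an H3K9ac pileup of only 19 in untreated KO cells, against 58 in KO cells after RA. All of the 5 strongest gained regions were also called in the untreated WT H3K56ac list, at pileups of 40, 29, 33, 37 and 23, so none was without acetylation signal in untreated WT cells.

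The lost region with the highest fold enrichment was chrX:22545380-22545590, with a pileup of 38 and a fold enrichment of 22.3 in untreated WT cells and no call after RA. It was called in neither KO H3K9ac list, and H3K56ac pileups of 15 were found in untreated WT cells and in KO cells after RA. At chr7:20808494-20808718 the untreated WT pileup was 33, and the only other list with a call was untreated WT H3K56ac, with 34. The other 3 of the 5 strongest lost regions, on chromosomes 15, 17 and 13, had untreated WT pileups of 39, 42 and 39. Raw pileups of these 5 lost regions, 33 to 42, were below those of the 5 strongest gained regions, 63 to 115. The untreated library had fewer tags and a shorter d, so these raw pileups are not on the same scale. Fold enrichment differed less, at 20.4 to 22.3 in these lost regions and 24.3 to 29.3 in the gained ones.

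Seen through the other peak lists, gained regions were more often shared than lost regions and less often than kept ones, in all lists but untreated WT H3K56ac. Of all 3571 regions, 71.2% were called for H3K9ac in KO cells after RA and 54.3% in untreated KO cells, and 50.7% for H3K56ac in WT cells after RA, so gained regions lay near these overall shares. Of the 802 gained regions, 73.8% were called for H3K9ac in KO cells after RA and 49.9% in untreated KO cells. Of the 953 lost regions, 26.8% were called in KO cells after RA and 13.4% in untreated KO cells. For H3K56ac in WT cells, 48.5% of gained regions were called after RA and 36.7% untreated, while 7.66% of lost regions were called after RA and 39.2% untreated. In the untreated WT H3K56ac list the share over all 3571 regions was 65.4%. No other acetylation list held 129 of the gained regions (16.1%), 460 of the lost regions (48.3%) and 35 of the kept regions (1.93%), against 17.5% of all 3571. All 6 other lists held 130 gained regions (16.2%), 13 lost regions and 994 kept regions (54.7%), against 31.8% of all regions.

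**Figure D2:**
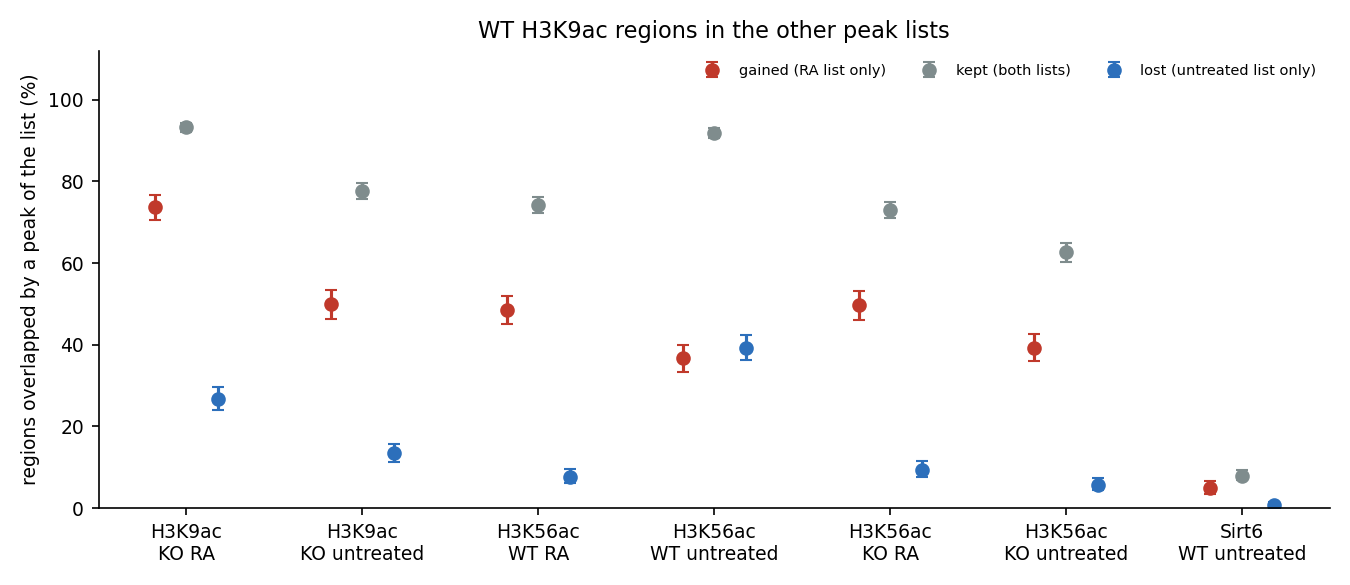
Share of gained, kept and lost WT H3K9ac regions (%, points with 95% Wilson intervals for counting error) overlapped by a peak of each other list. Gained regions lie above lost regions in 6 of the 7 lists, by most in the KO H3K9ac list after RA (73.8% against 26.8%); in the untreated WT H3K56ac list lost regions stand at 39.2% and gained at 36.7%.

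In the KO H3K9ac lists, gained regions were also more often called than lost regions among strong calls. Whether strength of the call goes with that difference was not tested. Over all 3571 regions of any strength, the shares were 71.2% in KO cells after RA and 54.3% in untreated KO cells. Among gained regions with a −log10 q of at least 20, of which there were 201, 99.5% were called for H3K9ac in KO cells after RA and 88.1% in untreated KO cells. Among lost regions of that strength, 139 in all, the shares were 37.4% after RA and 20.9% in untreated KO cells, and 67.6% were called for H3K56ac in untreated WT cells. Most strong gained regions were thus called in KO cells without RA. A Sirt6 peak overlapped 4.86% of gained, 7.98% of kept and 0.735% of lost regions, against 5.35% of all 3571, so the gained share was near that of all regions.

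The lists were also compared as wholes, each cut to its 2063 strongest peaks. The WT RA list shared 72.6% of merged regions with KO H3K9ac after RA, 57.3% with untreated KO H3K9ac and 53.1% with untreated WT H3K9ac. The untreated WT list shared most with untreated WT H3K56ac, at 63.1%, followed by 53.1% with WT H3K9ac after RA, 50.8% with KO H3K9ac after RA, 44.9% with WT H3K56ac after RA and 42.5% with untreated KO H3K9ac. The WT RA list shared 62.8% with the same untreated WT H3K56ac list, so that likeness was not particular to untreated WT H3K9ac.

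Kept regions had close to the same scaled pileup, which is pileup per 1000000 filtered tags, in the RA and the untreated library. The median level was 3.52 after RA and 3.63 untreated, and the median of the region-wise log2 ratios was 0.02 (order-statistic interval −0.02 to 0.06), with quartiles of −0.37 and 0.40. With 1 library a group, a region is called changed here when the ratio is past 2-fold: 128 of 1816 kept regions (7.05%) were higher after RA and 66 (3.63%) were lower, and 89.3% stayed within 2-fold. Dividing pileup by d as well, which scales it to the extension of the tags, turned that balance: 56 regions were then higher and 233 lower, and the median log2 ratio was −0.33. The direction of an overall shift is therefore not given by these lists, and ratios of subsets are set below against those of the other kept regions.

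**Figure D3:**
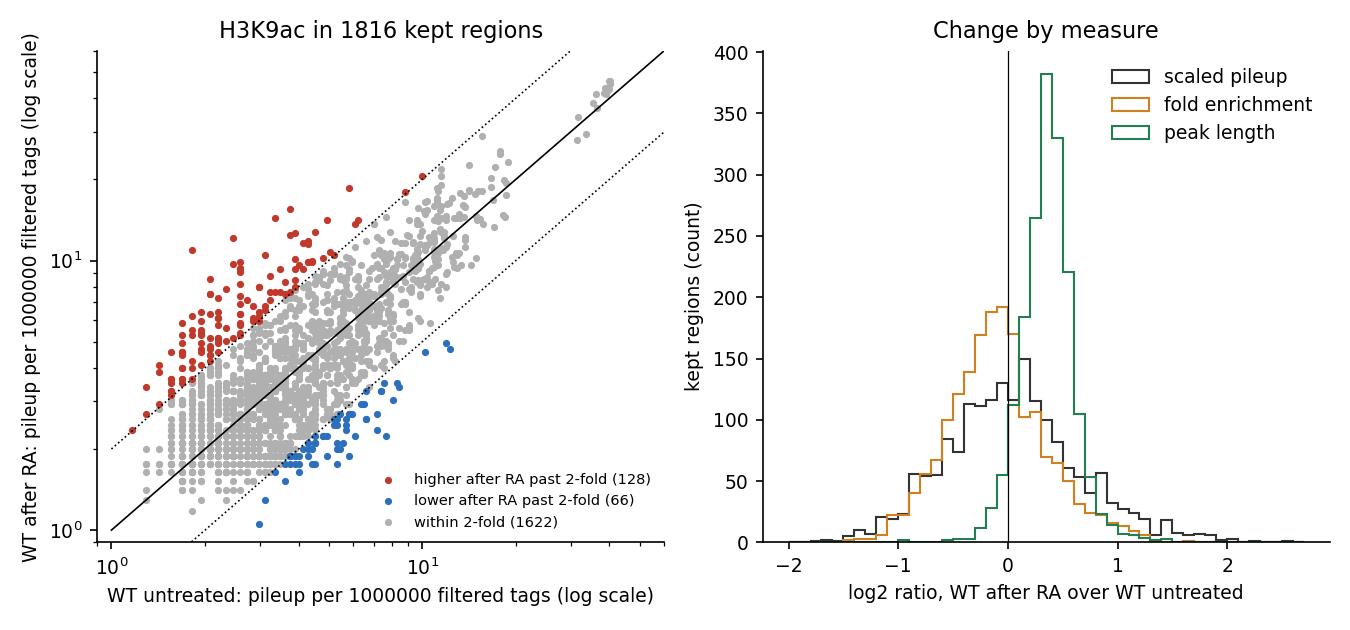
Left, scaled H3K9ac pileup, per 1000000 filtered tags, in each of the 1816 kept regions, WT after RA against WT untreated (log scales); the solid line marks equality, dotted lines 2-fold, with 128 regions above and 66 below. Right, counts of kept regions by log2 ratio of RA over untreated for scaled pileup, fold enrichment and peak length; the medians are 0.02, −0.12 and 0.37.

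Fold enrichment, which the caller scales to the local background, moved less. Its median in kept regions was 13.4 after RA and 14.3 untreated, with a median log2 ratio of −0.12, and it was past 2-fold higher in 30 regions (1.65%) and lower in 36 (1.98%). Peak length was longer after RA in 1711 of 1816 kept regions, with medians of 260 bp after RA and 201 bp untreated. The median log2 ratio of length was 0.37, while the log2 ratio of d between the libraries was 0.35, and length divided by d had a median log2 ratio of 0.01. Past 2-fold, 22 kept regions (1.21%) were longer and 0 (0%) shorter. The difference in length thus had the size of the difference in d.

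Peaks in both lists were narrow. The median peak was 244 bp after RA and 186 bp untreated, which is 1.23 and 1.20 times d, and only 121 RA peaks (4.61%) and 109 untreated peaks (3.91%) reached 2 times d. Peaks of at least 1000 bp numbered 6 after RA and 7 untreated. Gained regions had a median length of 1.07 d and lost regions 1.06 d, against 1.31 d after RA and 1.30 d untreated in kept regions. The 5 widest regions were all kept, with calls in each of the 8 acetylation lists. The widest, chrUn_random:5495454-5497262, lay on an unplaced contig and spanned 1809 bp, with pileups of 327 after RA and 274 untreated.

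**Figure D4:**
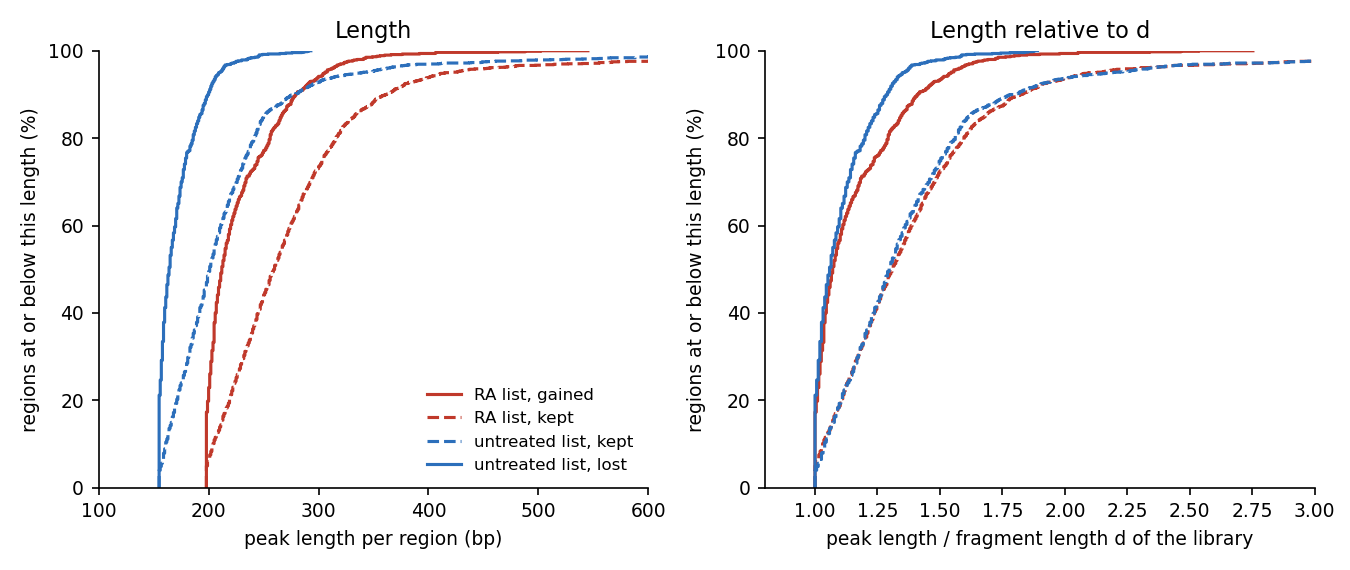
Cumulative share of regions (%) at or below a given peak length in bp (left, without the longest peaks) and at or below a given multiple of the library's d (right, drawn to 3), for the RA list (gained, kept) and the untreated list (kept, lost). On the left the kept curves are apart (medians 260 bp after RA and 201 bp untreated); on the right they nearly coincide (1.31 and 1.30).

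The spread of the ratios among kept regions depended on level. In 4 equal bins of kept regions by mean level, low to high, the SD over regions of the log2 ratio was 0.50, 0.67, 0.74 and 0.51, and the share past 2-fold in either direction was 4.19%, 15.2%, 17.2% and 6.17%. The middle bins thus held most of the regions that differed. In the lowest bin both values lie near the calling limit, and a lower value in either list would have put the region among the gained or lost ones.

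The largest ratio among kept regions was at chrX:116367577-116367920, where H3K9ac pileup was 93 after RA and 14 untreated. The ratio of scaled pileup was 6.02 (exact interval 3.41 to 11.4). KO cells had 131 after RA and 100 untreated. H3K56ac pileup at this region was 127 in WT cells after RA and 22 in untreated WT cells, a difference in the same direction. The ratio at chr5:40542554-40542800 was 4.91 (2.99 to 8.48), with pileups of 103 after RA and 19 untreated in WT cells, and 121 after RA and 131 untreated in KO cells. The other 3 of the 5 largest ratios were 4.28, 4.13 and 4.12, on chromosomes 16, 7 and 6.

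The lowest ratio was at chr1:20700457-20700692, with pileups of 19 after RA and 59 untreated, a ratio of 0.292 (0.164 to 0.496). In KO cells this region was called after RA, at a pileup of 19, and not in untreated cells. The remaining 4 of the 5 lowest ratios, on chromosomes 1 and X, were 0.322, 0.329, 0.331 and 0.354. None of the 5 overlapped a Sirt6 peak, but only 145 of all 1816 kept regions (7.98%) did. Among the 5 largest ratios, the regions on chromosomes 7 and 6 overlapped one and those on chromosomes X, 5 and 16 did not.

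At chr13:86453025-86453350, the kept region with the highest fold enrichment after RA, fold enrichment was 38.4 after RA and 36.3 untreated, while pileup was 247 after RA and 120 untreated, a ratio of scaled pileup of 1.86 (1.49 to 2.34). At chr12:3109808-3110212 pileup was 252 after RA and 259 untreated, a ratio of 0.881 (0.738 to 1.05). The log2 ratio of the 19 kept regions that reached 50% of the pileup limit in either library lay between −0.18 and 0.90, and 0 of them were past 2-fold; since pileup is bounded there, this is no sign of stability.

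The 128 kept regions that were higher after RA past 2-fold had median scaled pileups of 6.28 after RA and 2.40 untreated in WT cells, the values that chose them. The KO libraries did not enter that choice. Their medians were 6.49 after RA, over all 128 regions, and 6.30 untreated, over the 124 called there. The choice sets untreated WT low and WT after RA high, so their order is no finding. The RA over untreated log2 ratio in KO cells had a median of −0.10 at these regions, with quartiles of −0.40 and 0.28. Where the RA library of WT cells was above the untreated one by the most, both KO libraries thus had medians close to that of WT cells after RA.

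The 66 kept regions that were lower past 2-fold had median levels in WT cells, which chose them, of 2.17 after RA and 5.25 untreated. In KO cells the median was 2.15 after RA, over the 63 regions called there. It was 2.49 in untreated KO cells, over the 39 called there. At the 39 of these called in all 4 H3K9ac lists, the KO log2 ratio had a median of 0.04. Here too, both KO medians were close to that of WT cells after RA, but each leaves out the regions without a call in its list.

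**Figure D5:**
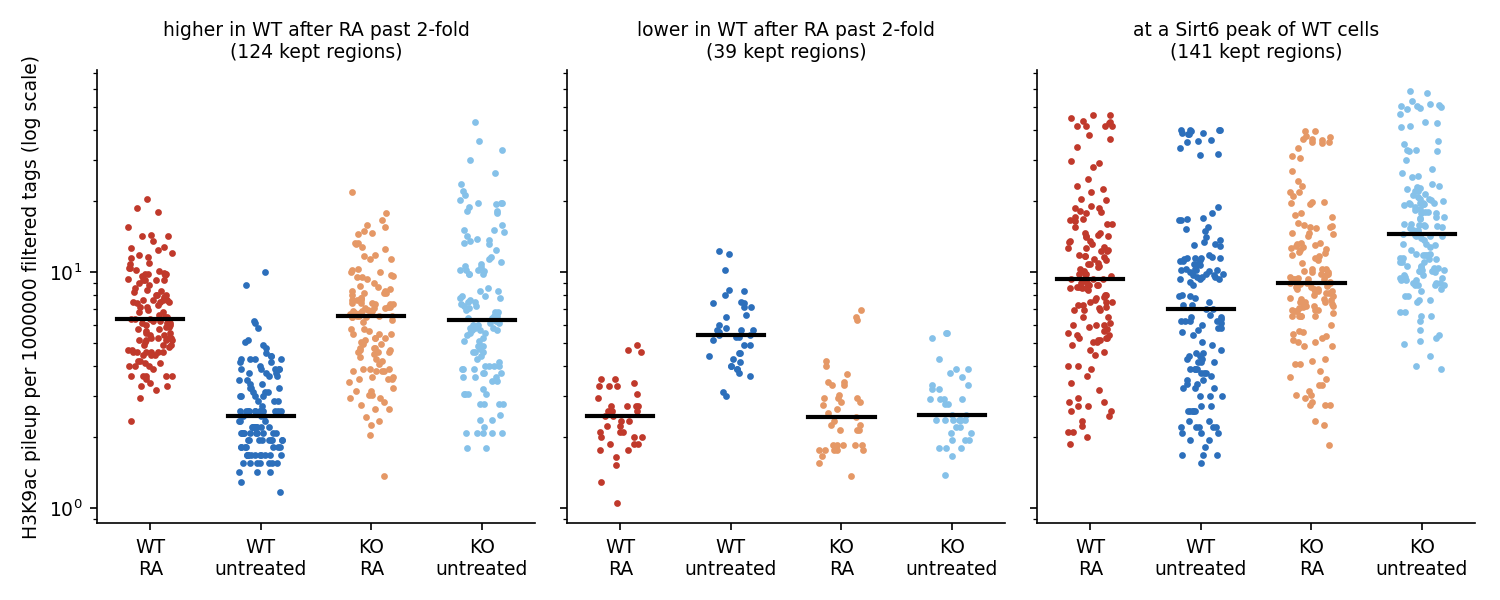
Scaled H3K9ac pileup, per 1000000 filtered tags (log scale), in the 4 H3K9ac libraries for kept regions called in all 4 lists, points being regions and bars medians: regions higher after RA in WT past 2-fold (124), lower past 2-fold (39), and regions at a Sirt6 peak (141). In the first and second panels the WT ratio chose the regions and so sets the 2 WT libraries apart; in the third untreated KO has the highest median.

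Across the 1393 kept regions called in all 4 H3K9ac lists, with no choice by ratio, the WT and KO ratios of RA over untreated had a Pearson r of −0.11 and a Spearman rho of −0.09. H3K56ac in WT cells, from libraries of its own, followed the H3K9ac ratio more closely, with r = 0.57 and rho = 0.53 across 1308 regions; the regions are not independent, and both contrasts use the WT cells with short fragments in the untreated state. Over all 1308, the H3K56ac log2 ratio had a median of 0.08 and was above 0 in 734 and below 0 in 574. At the regions higher for H3K9ac, the H3K56ac log2 ratio had a median of 0.78 and was above 0 in 109 of 122. At those lower for H3K9ac, its median was −0.62, and it was below 0 in 34 of 37. Whether the fragment length, another property of the untreated WT cells or RA itself goes with these differences cannot be told apart with 1 library in each group. The labels of the libraries, and whether these few, narrow peaks called without a control are the H3K9ac signal known from gene starts, were not tested.

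Sirt6 peaks marked a subset of kept regions with a different pattern in WT and KO cells. The 145 kept regions at a Sirt6 peak had a median log2 ratio of RA over untreated of 0.27 in WT cells, against −0.01 at the other 1671, and 25 (17.2%) were higher past 2-fold, against 103 (6.16%). Lower past 2-fold were 1 region at a Sirt6 peak and 65 others. The median log2 ratio of fold enrichment in WT cells was 0.02 at Sirt6 regions and −0.13 at the others. In KO cells the median log2 ratio was −0.47 at the 141 Sirt6 regions called in all 4 H3K9ac lists and 0.03 at the 1252 others, and 50 and 18 regions were lower past 2-fold. H3K9ac at Sirt6 regions thus ran higher after RA in WT cells and lower after RA in KO cells, relative to the other kept regions.

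The levels below are scaled by filtered tags only and not divided by d. At the 141 Sirt6 regions the median scaled H3K9ac pileup was 8.98 after RA and 14.5 untreated in KO cells, and 9.38 after RA and 7.00 untreated in WT cells. After RA, KO and WT cells were close, with a median log2 ratio of KO over WT of −0.11 at Sirt6 regions and −0.10 at the others. In untreated cells the log2 ratio of KO over WT was 0.73 at Sirt6 regions and −0.04 at the others. By this scaling, the gap between KO and WT cells at Sirt6-bound regions was seen in untreated cells and not after RA. The untreated pair also differed more in d, with 212 bp in KO and 155 bp in WT, against 204 and 198 bp after RA. Division by d, not done for this comparison, would lower the untreated ratios of both sets by the same amount. The size of the untreated gap therefore depends on the scaling, and whether fragment length goes with it was not tested.

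Sirt6 regions were stronger than the rest and more often called in every list, 93.1% against 51.6% of kept regions. The medians given so far do not hold these traits equal. By bin of level, low to high, the WT log2 ratio at Sirt6 regions had medians of 0.29, 0.29, 0.95 and 0.20, against −0.06, −0.07, −0.03 and 0.11 at the others, with 10, 17, 21 and 97 Sirt6 regions. The median at Sirt6 regions was the higher one in each bin, by least in the highest bin, which held most Sirt6 regions. Whether level accounts for the difference was not tested. Dividing pileup by d shifts every log2 ratio by the same amount, which gave −0.08 at Sirt6 regions and −0.37 at the others. The sign at Sirt6 regions therefore depends on that scaling, while the difference between the sets cannot change by it. Whether fragment length acts differently on the sets was not tested. Without regions called in all 8 lists, which leaves 10 Sirt6 regions, the medians were −0.10 (order-statistic interval −0.52 to 0.18) and −0.23. That interval holds the median of the others.

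Among autosomes, the share of regions kept was lowest on chromosome 9, at 42.7% (34.6 to 51.3), and highest on chromosome 4, at 57.8% (51.2 to 64.2). The intervals of these extremes overlap, and a difference between chromosomes was not tested. Chromosome X held 356 regions (9.97%), of which 94 were gained, 175 kept and 87 lost. Autosomes held 3027 regions, 50.1% of them kept, and contigs named random held 170, of which 66.5% were kept (59.1 to 73.1). The mitochondrial genome held 2 lost regions. Windows where 5-hydroxymethylcytosine differed between untreated KO and WT cells in the authors' deposited table overlapped few regions. The 1562 windows lower in KO overlapped 2 gained (0.249%), 3 kept (0.165%) and 2 lost regions (0.21%). The 2218 windows higher in KO overlapped 1 kept region (0.0551%). An expected overlap to set these shares against was not computed.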

How the data were processed

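The members and lists were chosen with earlier results of these data known. The submitters' processing notes name BWA 0.5.9, MACS2 2.0.10, build mm9 and Picard, the last without its step. Per the file headers, each acetylation library was called on its own, without a control, with q limited to 0.01; positions with many reads in any library were thus not subtracted. The deposited lists give each peak's pileup signal, its −log10 p and −log10 q, and its fold enrichment (a ratio over local background), all computed by the authors. The deposited table of 5-hydroxymethylcytosine windows gives the authors' log2 fold change, used only for its sign. Total tags were 8890918 in the WT RA library and 8069137 in the untreated one, per the file headers.

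Peaks overlapping by 1 bp or more were merged with Python 3.11.15, numpy 2.4.6 and pandas 2.3.3. From each list a region took the highest pileup, fold enrichment and −log10 q of its peaks, each on its own, and their summed length. Pileup was scaled to 1000000 filtered tags. Intervals are 95%, Wilson for shares, exact (Clopper-Pearson, scipy 1.17.1) for ratios of pileups or counts, and order-statistic for medians. Plots used matplotlib 3.10.9. The steps were checked on simulated data.

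Regions were named by rule: the 5 with the highest fold enrichment in each class, the 5 highest and 5 lowest ratios of pileup among kept regions, and the 5 widest, of which the text gives some. A −log10 q of 20 marks strong calls. Gene lists and sequences were not used, since no annotation of build mm9 was. Unused columns of per-sample values numbered 0.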

Additional observations from a re-analysis of the deposited data

Results flagged for a closer look

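Of the 1393 kept regions called in all 4 H3K9ac lists, 13 had opposite ratios. Their scaled H3K9ac pileup, per 1000000 filtered tags, was past 2-fold higher after RA in WT cells and past 2-fold lower after RA in KO cells. Among the 1393, 124 were past 2-fold higher in WT cells and 68 past 2-fold lower in KO cells. The difference between WT and KO cells was not tested, since each group holds 1 library. The log2 ratio of RA over untreated in WT cells was 1.75 at the region on chromosome 1 from 25176851, 1.80 on chromosome 10 from 85697238, and 1.20 and 1.23 on chromosome 11 from 45538130 and 71197909. It was 1.54 on chromosome 12 from 52269226, 1.49 on chromosome 15 from 54042380, 1.44 on chromosome 19 from 22002928 and 1.16 on chromosome 2 from 47498003. It was 1.16 on chromosome 4 from 92652844, 1.40 and 1.47 on chromosome 5 from 28931221 and 32291147, 2.05 on chromosome 7 from 81944444, and 1.23 on the contig Y_random from 7866945.

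In KO cells the log2 ratio at these 13 regions lay between −1.77 and −1.02. All 13 overlapped a Sirt6 peak of untreated WT cells, as did 145 of all 1816 kept regions and 141 of the 1393 they came from. Of the 68 regions past 2-fold lower in KO cells, 50 were at a Sirt6 peak, so that choice alone took mostly such regions. Their median scaled pileup was 7.32 after RA and 21.2 untreated in KO cells, and 6.10 after RA and 2.20 untreated in WT cells. These levels restate the choice of the regions, which sets untreated KO high and untreated WT low. KO after RA was within 2-fold of WT after RA at all 13. That was so at nearly all kept regions: of the 1695 called in both RA lists, 0 were past 2-fold higher in KO and 10 past 2-fold lower. Regions past 2-fold in the same direction in both genotypes numbered 2. With pileup also divided by d, 8 regions were past 2-fold in opposite directions, 6 of them among the 13 and 6 of them at a Sirt6 peak.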

How the results depend on the processing

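Of 116 values recomputed under another setting, 92 stayed within the main interval, or within 1.5-fold of a main count. A further 20 moved past that and 4 turned direction. A turn was counted only where the main interval excluded equality. The median log2 ratio of pileup in kept regions was not such a value, so its changes of sign are counted as moved. At a −log10 q of at least 10 the ratio of gained to lost regions was 1.06, the shares called in KO H3K9ac lists were 45.4% of gained regions untreated, and 21.7% after RA and 7.70% untreated of lost regions, and the median log2 ratio at Sirt6 regions was 0.37. Lists of equal length gave 1.01 gained regions per lost region. With pileup divided by d, the median log2 ratio in kept regions was −0.33, with 56 higher and 233 lower, and the medians were −0.081 at Sirt6 regions and −0.37 at the others. Unscaled pileup gave a median of 0.17 and 31 lower regions. Past 1.5-fold, 320 kept regions were higher and 265 lower by pileup, and 135 higher and 240 lower by fold enrichment. Without regions called in all 8 lists, 31.9% of regions were kept, the median log2 ratio was −0.22 with 17 higher by pileup and −0.27 with 4 higher by fold enrichment, and the medians were −0.10 at Sirt6 regions and −0.23 at the others. The settings of the Sirt6 split, and the division by d for the opposite regions, were chosen after seeing the data. The cause of these changes was not tested, beyond the smaller number of regions that stricter settings leave.

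No paired analysis was possible because each group holds 1 library, and leaving a library out leaves no comparison. Alternatives that need genes or sequence were not run. The weakest calls rest on a pileup of 9 after RA and 8 untreated, where counting error is large.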
